A study of Mus musculus with 6 samples.

Results

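The genes described here were the collagens and the enzymes that modify collagen in the mouse prostate. All genes of the deposited table named Col with a number, a and a number, together with Lox, Loxl1 to Loxl4, Plod1 to Plod3 and P4ha1 to P4ha3, were taken by symbol. This gave 55 genes of the 34745 in the table: 44 collagen chains and 11 enzymes. RNA-seq had been performed on prostate tissue from 6 male C57BL/6 mice, which were 6 to 8 weeks old at the start. The 3 mice of the T+E2 group carried a subcutaneous slow-release pellet of testosterone (T) and estradiol (E2), renewed during the 12 weeks of treatment, to model benign prostatic hyperplasia (BPH) with bladder outlet obstruction. The 3 mice of the control (CON) group had the skin incision without a pellet. The 2 hormones were given together in 1 pellet, so their separate effects cannot be told apart. Library totals ranged from 14816146 to 16555549 counts.

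Collagen chains are synthesized in the endoplasmic reticulum, where prolyl hydroxylases act on proline and lysyl hydroxylases act on lysine before the chains fold into a helix. After secretion, lysyl oxidases convert lysine and hydroxylysine side chains into the aldehydes from which cross-links form. In the prostate, fibrillar and beaded filament collagens lie in the stroma between the smooth muscle bundles, while type IV collagen forms the basement membrane sheets under the glandular epithelium and around smooth muscle cells and vessels.

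Of the 55 genes, 48 had enough counts to be tested (edgeR's quasi-likelihood test, Benjamini-Hochberg adjustment over all 15580 genes tested). In the T+E2 group 5 of the 48 rose and 6 fell at an adjusted p under 0.05, which is 10.4% and 12.5% of them, while over all genes tested 10.4% rose and 9.25% fell. With an absolute log2 fold change over 1 as well, the criterion of the study for a differentially expressed gene (DEG), 2 of the 48 were upregulated and 3 were downregulated, beside 4.27% and 3.38% of all genes tested. For 14 of the 48 genes (29.2%) all T+E2 mice lay above all CON mice in CPM (counts scaled to a common library total). For 11 (22.9%) all T+E2 mice lay below. Over all genes tested these shares were 20% and 20.7%. The share that lay above was thus larger among the 48 genes, and this difference was not tested. The median log2 fold change of the 48 genes was -0.06, and that of all genes was -0.00207. The shares that passed the test lay near the background, so the counts alone are not a result about these genes, and the values of particular chains and enzymes are given below. The plot of fold changes by class shows them gene by gene.

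**Figure D1:**
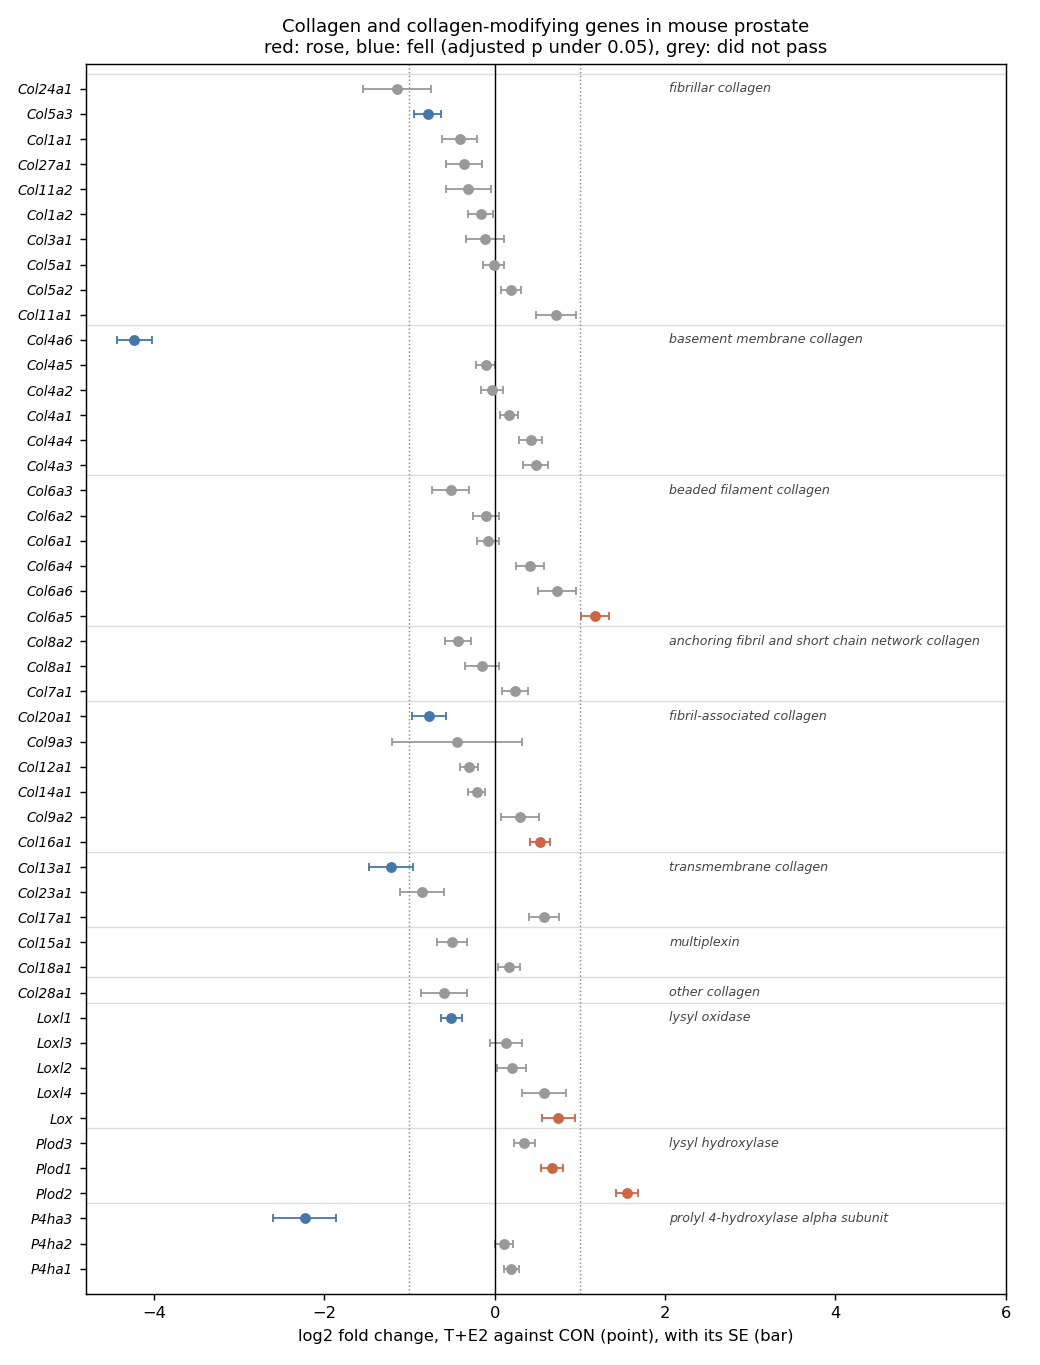
Log2 fold change of T+E2 against CON (x axis) with its SE for the 48 tested collagen and collagen-modifying genes, grouped by class (3 mice per group). Red points rose and blue points fell at an adjusted p under 0.05, and dotted lines mark log2 fold changes of -1 and 1. Col4a6 lies at -4.23, far from the other type IV chains, and Plod2 has the highest value among the enzymes, 1.55.

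The 7 genes that could not be tested had few or no counts. Col2a1, the fibrillar collagen of cartilage, was at 0 in all 6 mice, which at 3 counts as the limit of detection allows up to 0.181 to 0.202 CPM per library. Col10a1, the collagen of hypertrophic cartilage, was at 0 in the CON mice and had 0, 2 and 8 counts in the T+E2 mice. Col9a1, Col19a1, Col22a1 and Col25a1 had 0 to 8 counts in every library. Col26a1 had 16 counts in CON mouse 2, 0 in the other CON mice and 4 to 5 counts in the T+E2 mice.

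1 library stood apart in its content. The summed CPM of 5 seminal vesicle genes (Svs2, Svs4, Svs5, Svs6 and Pate4) was 10270 in CON mouse 2, 642 in T+E2 mouse 2 and 0.629 to 3.84 in the other 4 mice, and the summed CPM of 5 adipocyte genes was also highest in CON mouse 2, at 518 against 43.3 to 137 in the other 5 mice. Their part in the collagen values was not tested directly, so calls that were lost without CON mouse 2 are given with both values below. RNA was taken from bulk tissue, so fewer cells of a type and less RNA per cell cannot be told apart in any of these values.

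The change with the smallest p among the collagens was that of Col4a6, which encodes the alpha 6 chain of type IV collagen. Its level was 80.7, 61.4 and 78.7 FPKM (fragments scaled by gene length and library total, which allows comparison between genes) in the 3 CON mice, and 4.57, 3.05 and 3.84 FPKM in the 3 T+E2 mice. Every T+E2 mouse lay far below every CON mouse. In CPM the mean fell from 599 ± 91.6 (SD, n = 3) to 32.0 ± 7.07 (SD, n = 3), a log2 fold change of -4.23 (SE 0.20), or 18.7-fold lower, with an adjusted p of 1.66e-05. This was the fall of rank 23 among the 15580 genes tested, and the log2 fold change ranged from -4.40 to -3.95 under the 14 other settings, including the omission of each mouse. In each of the 3 CON mice Col4a6 had the highest FPKM of all 44 collagen chains, and in none of the T+E2 mice was it among the top 5. Type IV collagen lies around smooth muscle cells and under the epithelium. The summed CPM of 8 smooth muscle markers was 4260 to 5279 in the CON mice and lower in all T+E2 mice, at 3740 to 4080. The sums of basal epithelial markers were higher in all T+E2 mice, at 556 to 643 CPM against 496 to 534 CPM in the CON mice. Those of luminal epithelial markers overlapped, at 3671 to 3949 CPM in the CON mice and 3697 to 3921 CPM in the T+E2 mice. These cell types are detailed with the others at the end, and their part in the fall of Col4a6 was not tested.

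The other 5 type IV chains did not pass the test. Col4a1 and Col4a2, which assemble together into the type IV network found in nearly all basement membranes, differed by log2 fold changes of 0.17 (SE 0.10, adjusted p = 0.280) and -0.03 (SE 0.13, adjusted p = 0.881). Col4a1 was at 23.9, 27.8 and 24.6 FPKM in the CON mice and at 27.9, 25.0 and 30.6 FPKM in the T+E2 mice, so the groups overlapped. Col4a3 and Col4a4, which assemble with the alpha 5 chain, had log2 fold changes of 0.48 (SE 0.15, adjusted p = 0.0532) and 0.42 (SE 0.13, adjusted p = 0.0603), just outside the threshold, and all 3 T+E2 mice lay above all CON mice for both. Col4a5, whose product is the partner of the alpha 6 chain, was at 5.45, 5.24 and 5.70 FPKM in the CON mice and at 5.34, 5.10 and 4.37 FPKM in the T+E2 mice. These values overlapped, with a log2 fold change of -0.11 (SE 0.11, adjusted p = 0.546). The ratio of Col4a5 to Col4a6 FPKM was therefore 0.0676 to 0.0853 in the CON mice, compared with 1.14 to 1.67 in the T+E2 mice. The plot of the type IV chains shows this gap for Col4a6 alone among the 6 chains.

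**Figure D2:**
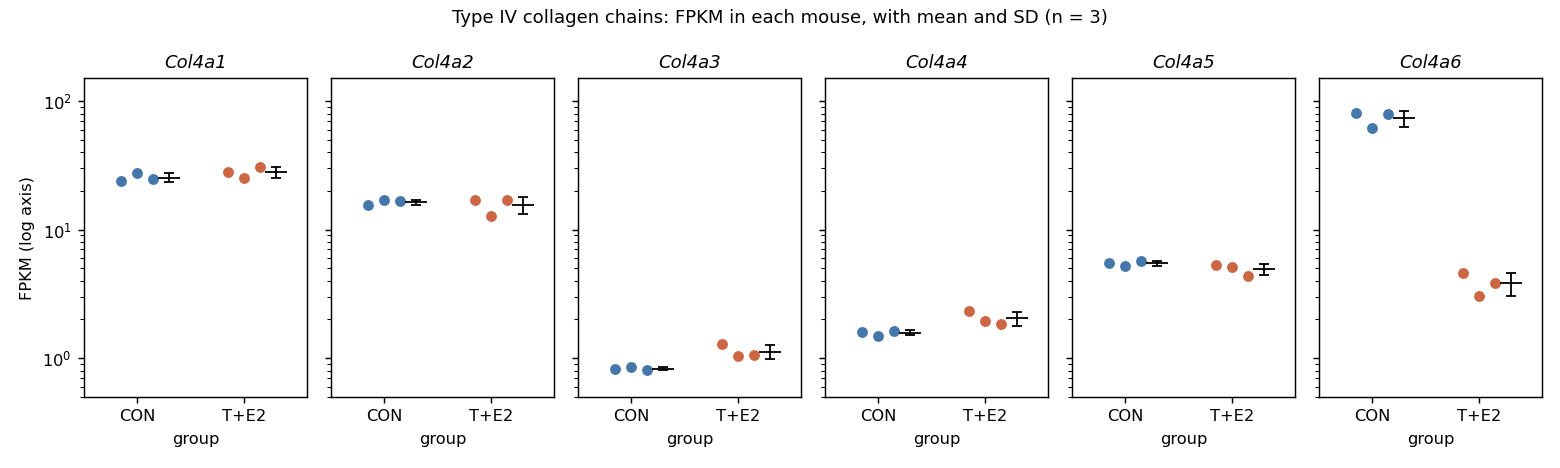
FPKM of the 6 type IV collagen chains in each mouse (points, log axis), with the mean and SD of each group (bars, n = 3). Col4a6 lies between 61.4 and 80.7 FPKM in the CON mice and between 3.05 and 4.57 FPKM in the T+E2 mice, while the other 5 chains stay within the same range or close to it in both groups.

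Type IV genes lie in head-to-head pairs. Col4a6 (chromosome X, 141165403 to 141474076, minus strand) and Col4a5 (chromosome X, 141475385 to 141689234, plus strand) point away from each other, and their RefSeq start sites are 1343 bases apart. Col4a3 and Col4a4 on chromosome 1 are 71 bases apart, and Col4a1 and Col4a2 on chromosome 8 overlap by 22 bases at their starts. These coordinates are those of the deposited table. They equal GENCODE M21 (GRCm38) for 51 of the 55 genes. Because the neighbours Col4a6 and Col4a5 differed so much in their change, the 250 bases before each RefSeq start are shown, 5′ to 3′ on the strand of the gene, from the RefSeq promoter table of build GRCm38.p6. Capitals mark the GC box, GGGCGG or its reverse complement, and in Col4a5 also the CCAAT box. Col4a6 is chrX:141474077-141474326 on the minus strand and Col4a5 is chrX:141475169-141475418 on the plus strand.
Col4a6: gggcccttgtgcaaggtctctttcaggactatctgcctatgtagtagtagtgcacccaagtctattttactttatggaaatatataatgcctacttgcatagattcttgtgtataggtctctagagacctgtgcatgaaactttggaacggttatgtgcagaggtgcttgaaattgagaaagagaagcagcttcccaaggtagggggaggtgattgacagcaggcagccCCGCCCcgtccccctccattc
Col4a5: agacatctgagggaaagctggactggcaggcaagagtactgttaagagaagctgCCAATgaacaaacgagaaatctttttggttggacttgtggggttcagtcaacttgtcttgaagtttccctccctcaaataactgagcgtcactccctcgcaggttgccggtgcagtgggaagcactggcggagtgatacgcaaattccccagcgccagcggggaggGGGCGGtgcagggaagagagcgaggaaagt
The Col4a6 window held 47.6% G and C with 3 CpG dinucleotides, and the Col4a5 window held 54.0% with 10, beside medians of 52.4% and 6 over the same window of all 32851 promoters of the table. Both held 1 GC box, a motif present in 32.7% of all promoters, and Col4a5 also held 1 CCAAT box, present in 33.8%. Neither held TATAAA, the TATA box, which is present in 12.4%. Promoter sequences were matched for 41 of the 55 genes by symbol. None of these held the full oestrogen response element (GGTCA and its reverse complement with a gap of 3 bases), found in 0.06% of all promoters, or the androgen response element (GNACA, where N is any base, and its reverse complement with a gap of 3 bases), found in 0.39%, both searched on both strands. The half-site GGTCA, part of the full oestrogen element, was found for 15 of the 41 genes and in 35.2% of all promoters, and neither Col4a6 nor Col4a5 held it. A match or its absence in this window is a description of the letters only.

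The makeup of collagen mRNA was then described from FPKM. Summed over the 44 chains, collagen reached 302, 354 and 354 FPKM in the CON mice and 264, 234 and 246 FPKM in the T+E2 mice, so all T+E2 mice were lower. Col4a6 held 26.7%, 17.4% and 22.2% of this sum in the CON mice, compared with 1.31% to 1.73% in the T+E2 mice. Without Col4a6, the sum was 221, 293 and 275 FPKM in the CON mice and 259, 230 and 242 FPKM in the T+E2 mice, and the groups overlapped. The class of basement membrane chains held 32.1% to 42.4% of collagen FPKM in the CON mice, compared with 20.9% to 23.9% in the T+E2 mice. Among the collagen FPKM other than Col4a6, the remaining type IV chains held 17.9% to 21.4% and 19.9% to 22.7%, fibrillar chains 29.2% to 32.8% and 26.2% to 30.6%, and beaded filament chains 30.0% to 30.8% and 29.8% to 31.5% (CON and T+E2 mice, with overlap in each class). Collagen chains took 0.261% to 0.311% of all gene counts in the CON mice, compared with 0.207% to 0.235% in the T+E2 mice. Without Col4a6 these shares overlapped, at 0.1948% to 0.2605% and 0.2048% to 0.2315%.

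**Figure D3:**
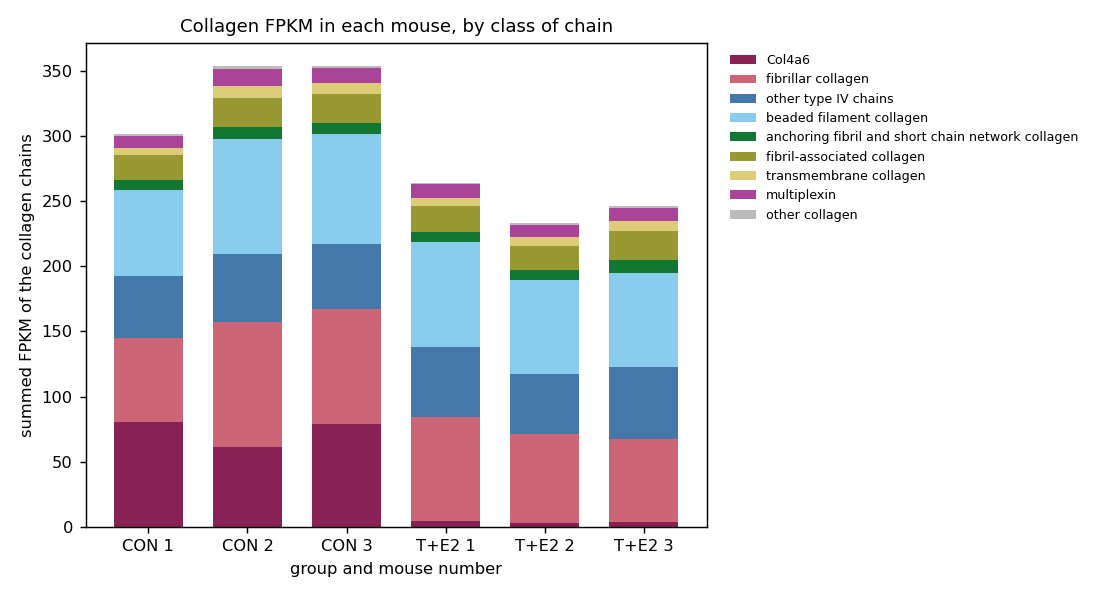
Summed FPKM of the 44 collagen chains in each of the 6 mice (bars, from 0), divided by class of chain, with Col4a6 apart at the bottom of each bar. The Col4a6 segment is 61.4 to 80.7 FPKM in the CON mice, compared with 3.05 to 4.57 FPKM in the T+E2 mice, and the rest of the bars overlaps between the groups, at 221 to 293 and 230 to 259 FPKM.

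Fibrillar collagens form the fibrils of the stroma. Of their 10 tested chains, 1 fell and none rose, beside 9.25% and 10.4% of all genes tested. The chain that fell was Col5a3, a chain of type V collagen, a minor component that controls the start and width of fibrils. Col5a3 was at 26.8, 36.4 and 26.0 CPM in the CON mice and at 15.8, 16.6 and 19.3 CPM in the T+E2 mice. The groups did not overlap, and the log2 fold change was -0.79 (SE 0.16, adjusted p = 0.0107). The other chains of type V, Col5a1 and Col5a2, had log2 fold changes of -0.01 (SE 0.12, adjusted p = 0.954) and 0.19 (SE 0.12, adjusted p = 0.298). The FPKM ratio of Col5a3 to Col5a1 was 0.685 to 0.789 in the CON mice, compared with 0.347 to 0.508 in the T+E2 mice.

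The major fibrillar chains did not pass the test. Col1a1, which forms type I collagen with Col1a2, was at 112, 171 and 179 CPM in the CON mice and at 144, 100.4 and 102 CPM in the T+E2 mice. CON mouse 1 lay among the T+E2 mice, and the log2 fold change was -0.41 (SE 0.21, adjusted p = 0.200). Col3a1, the main chain of thin reticular fibrils, was at 211, 368 and 323 CPM in the CON mice and at 330, 284 and 218 CPM in the T+E2 mice. Its log2 fold change of -0.12 (SE 0.22, adjusted p = 0.749) had no stable direction, since it was 0.05 without CON mouse 2 and 0.03 without T+E2 mouse 3. Col1a2 gave -0.16 (SE 0.15, adjusted p = 0.476). The low fibrillar chains Col11a1, Col11a2, Col24a1 and Col27a1 ranged in log2 fold change from -1.15 (Col24a1, SE 0.40, adjusted p = 0.0792) to 0.72 (Col11a1, SE 0.23, adjusted p = 0.0663).

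Type VI collagen, which forms beaded microfilaments near cell surfaces, showed a rise in Col6a5. The classical chains are Col6a1, Col6a2 and Col6a3, and Col6a4, Col6a5 and Col6a6 encode chains related to that of Col6a3. Col6a5 was at 64.4, 47.1 and 51.0 CPM in the CON mice and at 113, 147 and 108 CPM in the T+E2 mice. All T+E2 mice lay above all CON mice, and the level rose 2.27-fold, a log2 fold change of 1.18 (SE 0.16, adjusted p = 0.00208). This call held under all 14 other settings, with log2 fold changes of 1.01 to 1.32. Col6a5 lies on chromosome 9 (105856070 to 105960643, minus strand) between Col6a6 and Col6a4, in the same direction as both. Col6a6 (log2 fold change 0.73, SE 0.22, adjusted p = 0.0531) and Col6a4 (0.41, SE 0.17, adjusted p = 0.120) did not pass, although all T+E2 mice were above all CON mice for each. A stretch of 572 bases is 96.9% identical between transcripts of Col6a5 and Col6a6, so reads from it could be counted to either or to none, and the sum of both genes was 52.5 to 70.5 CPM in the CON mice, compared with 116 to 158 CPM in the T+E2 mice.

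The classical type VI chains overlapped between the groups. Col6a1 had the highest FPKM of all collagens in each T+E2 mouse and ranked next to Col4a6 in each CON mouse. It was at 30.9, 39.9 and 39.2 FPKM in the CON mice and at 36.1, 32.1 and 33.4 FPKM in the T+E2 mice, with a log2 fold change of -0.08 (SE 0.13, adjusted p = 0.702). Col6a2 gave -0.10 (SE 0.15, adjusted p = 0.665). Col6a3 was at 221, 353 and 335 CPM in the CON mice and at 269, 172 and 196 CPM in the T+E2 mice, with a log2 fold change of -0.52 (SE 0.22, adjusted p = 0.132). Among them the values of CON mouse 1 were the lowest of the CON group, as they also were for Col1a1, Col1a2 and Col3a1.

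Among the fibril-associated collagens, which sit on the surface of fibrils, 1 of 6 tested chains rose and 1 fell. Over all genes tested, 10.4% rose and 9.25% fell. Col16a1 was at 57.4, 64.3 and 74.0 CPM in the CON mice and at 98.9, 85.7 and 99.0 CPM in the T+E2 mice. The groups did not overlap, and the log2 fold change was 0.53 (SE 0.12, adjusted p = 0.0178), with adjusted p of 0.0505 without CON mouse 1, 0.0602 without CON mouse 2 and 0.0611 without T+E2 mouse 1. Col20a1 was at 16.4, 25.1 and 24.3 CPM in the CON mice and at 13.4, 10.4 and 14.9 CPM in the T+E2 mice. It was lower in each T+E2 mouse than in each CON mouse, with a log2 fold change of -0.77 (SE 0.20, adjusted p = 0.0322), and the adjusted p was 0.0946 without CON mouse 2, 0.102 without CON mouse 3, 0.0703 without T+E2 mouse 1 and 0.0993 without T+E2 mouse 2. Col20a1 shares 79 exonic bases with another annotated gene on the same strand, so part of its counts is uncertain. Col12a1, at 77.3 to 81.0 CPM in the CON mice, compared with 57.5 to 71.6 CPM in the T+E2 mice, did not pass (log2 fold change -0.30, SE 0.10, adjusted p = 0.0759), nor did Col14a1, Col9a2 and Col9a3, with log2 fold changes of -0.21, 0.30 and -0.44.

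The transmembrane collagens, which span the plasma membrane of the cell that makes them, held another downregulated DEG, Col13a1. It was at 4.17, 3.42 and 5.22 CPM in the CON mice and at 2.01, 2.01 and 1.47 CPM in the T+E2 mice. The groups did not overlap, and the level was 2.33-fold lower (log2 fold change -1.22, SE 0.26, adjusted p = 0.0139), with an adjusted p of 0.0534 without CON mouse 3. On log2(FPKM + 1), which compresses low genes, its change was -0.41. Col23a1 was at 16.2, 36.5 and 27.0 CPM in the CON mice and at 14.6, 13.8 and 15.8 CPM in the T+E2 mice, just outside the threshold (log2 fold change -0.85, SE 0.26, adjusted p = 0.0542). The log2 fold change of Col23a1 was -1.11 (adjusted p = 0.00531) without CON mouse 1, its lowest CON value, and -0.56 (adjusted p = 0.138) without CON mouse 2, its highest, and the other omissions gave adjusted p of 0.0974 to 0.155. Col17a1, the hemidesmosome collagen that anchors basal epithelial cells, was at 13.0, 15.2 and 20.4 CPM in the CON mice and at 20.8, 25.7 and 26.2 CPM in the T+E2 mice, with a log2 fold change of 0.58 (SE 0.18, adjusted p = 0.0568).

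In the remaining classes no tested chain passed. Col7a1, the anchoring fibril collagen, was at 46.5 to 66.4 CPM in the CON mice, compared with 59.97 to 73.9 CPM in the T+E2 mice (log2 fold change 0.24, SE 0.15, adjusted p = 0.287). Col8a2 was at 11.3 to 14.5 CPM and 8.40 to 9.81 CPM (log2 fold change -0.43, SE 0.15, adjusted p = 0.0806), and Col8a1 gave -0.15. Col8a2 was thus lower in every T+E2 mouse, while Col7a1 overlapped. The multiplexins Col15a1 and Col18a1, which lie at basement membranes and carry heparan or chondroitin sulfate, had log2 fold changes of -0.50 (SE 0.17, adjusted p = 0.0793) and 0.17 (SE 0.13, adjusted p = 0.401). Col15a1 was at 37.0, 58.0 and 47.7 CPM in the CON mice and at 38.7, 29.2 and 32.8 CPM in the T+E2 mice, and Col18a1 at 54.5 to 74.3 CPM and 71.5 to 80.5 CPM. Both overlapped between the groups, as did Col28a1, a low collagen related to type VI. Col28a1 was at 7.29 to 12.0 CPM and 4.29 to 7.61 CPM (log2 fold change -0.59, SE 0.27, adjusted p = 0.162). The plot of 6 other chains shows the 5 further collagens that passed the test, beside Col6a3.

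**Figure D4:**
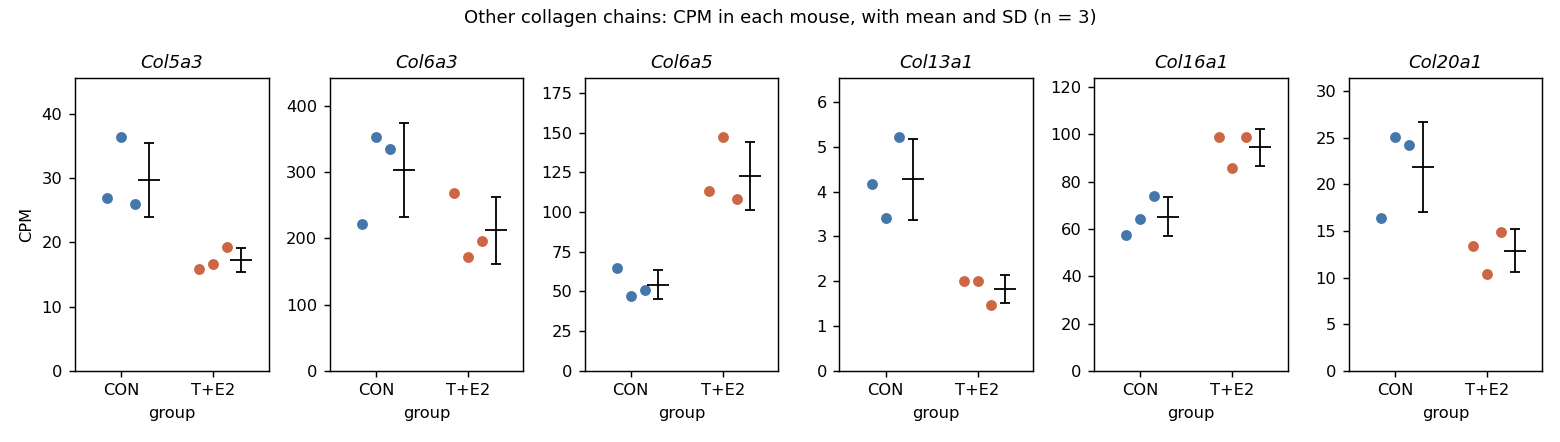
CPM of Col5a3, Col6a3, Col6a5, Col13a1, Col16a1 and Col20a1 in each mouse (points), with the mean and SD of each group (bars, n = 3). The groups do not overlap for 5 of these chains, which were plotted because they passed the test on the same counts. Col6a5 and Col16a1 are higher and Col5a3, Col13a1 and Col20a1 lower in the T+E2 mice, while Col6a3 overlaps. Over all genes tested, 20% do not overlap with the T+E2 mice higher and 20.7% with them lower.

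The enzymes were all expressed and tested, and 3 of the 11 rose (27.3%) and 2 fell (18.2%). Over all genes tested, 10.4% rose and 9.25% fell. With only 11 genes these counts are a description, and the calls of Lox and Loxl1 were lost in some other settings. All 3 lysyl hydroxylases, which hydroxylate lysine before cross-linking, were higher in every T+E2 mouse than in every CON mouse, and 2 of them passed the test. Such a separation was seen for 20% of all genes tested, and for Plod3 it was narrow (46.8 CPM in T+E2 mouse 2, 46.2 CPM in CON mouse 3). Plod2, known for hydroxylating the telopeptides and so for the type of cross-link that forms, was at 26.4, 30.0 and 31.2 CPM in the CON mice and at 95.5, 88.9 and 72.1 CPM in the T+E2 mice. It rose from 29.2 ± 2.51 to 85.5 ± 12.0 CPM (SD, n = 3 each), 2.93-fold, with a log2 fold change of 1.55 (SE 0.13, adjusted p = 0.000195), and the call held under all 14 other settings (1.31 to 1.66). Plod1 was at 28.3, 36.4 and 38.0 CPM in the CON mice and at 56.2, 57.8 and 49.8 CPM in the T+E2 mice. The groups did not overlap, and its log2 fold change was 0.67 (SE 0.13, adjusted p = 0.00932). Plod3 was at 45.4, 43.3 and 46.2 CPM in the CON mice and at 62.7, 46.8 and 62.3 CPM in the T+E2 mice, and did not pass (log2 fold change 0.35, SE 0.13, adjusted p = 0.0905). The FPKM ratio of Plod2 to Plod1 was 0.893 to 1.01 in the CON mice, compared with 1.58 to 1.85 in the T+E2 mice.

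The prolyl 4-hydroxylase alpha subunits, whose hydroxyproline stabilizes the helix, included 1 gene that fell. P4ha1 was at 32.6, 35.0 and 35.2 CPM in the CON mice and at 40.0, 41.0 and 36.8 CPM in the T+E2 mice (log2 fold change 0.20, SE 0.09, adjusted p = 0.159). P4ha2 was at 48.7, 44.7 and 55.6 CPM and at 57.3, 51.5 and 52.3 CPM, with overlap (log2 fold change 0.11, SE 0.11, adjusted p = 0.494). The minor subunit P4ha3 had 27, 28 and 17 counts in the CON mice and 5, 6 and 4 counts in the T+E2 mice. It fell by 2.23 on the log2 scale (SE 0.37, adjusted p = 0.00498), 4.69-fold, from a low level of 1.57 ± 0.431 CPM to 0.326 ± 0.0521 CPM (SD, n = 3 each). On log2(FPKM + 1) the change of P4ha3 was -0.33.

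Lysyl oxidases moved in both directions. Lox, the founding member of the family, was at 37.0, 21.2 and 24.5 CPM in the CON mice and at 43.1, 44.4 and 51.3 CPM in the T+E2 mice. The groups did not overlap, and Lox rose by a log2 fold change of 0.75 (SE 0.20, adjusted p = 0.0326). Its adjusted p was over 0.05 in 7 of 14 other settings, namely 0.0782 without CON mouse 2, 0.107 without CON mouse 3, 0.0582 without T+E2 mouse 1, 0.0795 without T+E2 mouse 2, 0.0882 without T+E2 mouse 3, and 0.0567 and 0.0544 with limma on log2 FPKM. Loxl1, known for its role in elastic fibres, was at 16.2, 18.3 and 17.6 CPM in the CON mice and at 13.6, 11.9 and 11.2 CPM in the T+E2 mice. It was lower in each T+E2 mouse (log2 fold change -0.51, SE 0.12, adjusted p = 0.0246), with adjusted p of 0.0775 without CON mouse 2, 0.0748 without CON mouse 3, 0.0736 without T+E2 mouse 2 and 0.0633 without T+E2 mouse 3. Loxl2, Loxl3 and Loxl4 gave 0.20, 0.13 and 0.58 and did not pass. The plot of the 11 enzymes shows Plod2 and Plod1 well apart between the groups and Lox with a wide spread in the CON group.

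**Figure D5:**
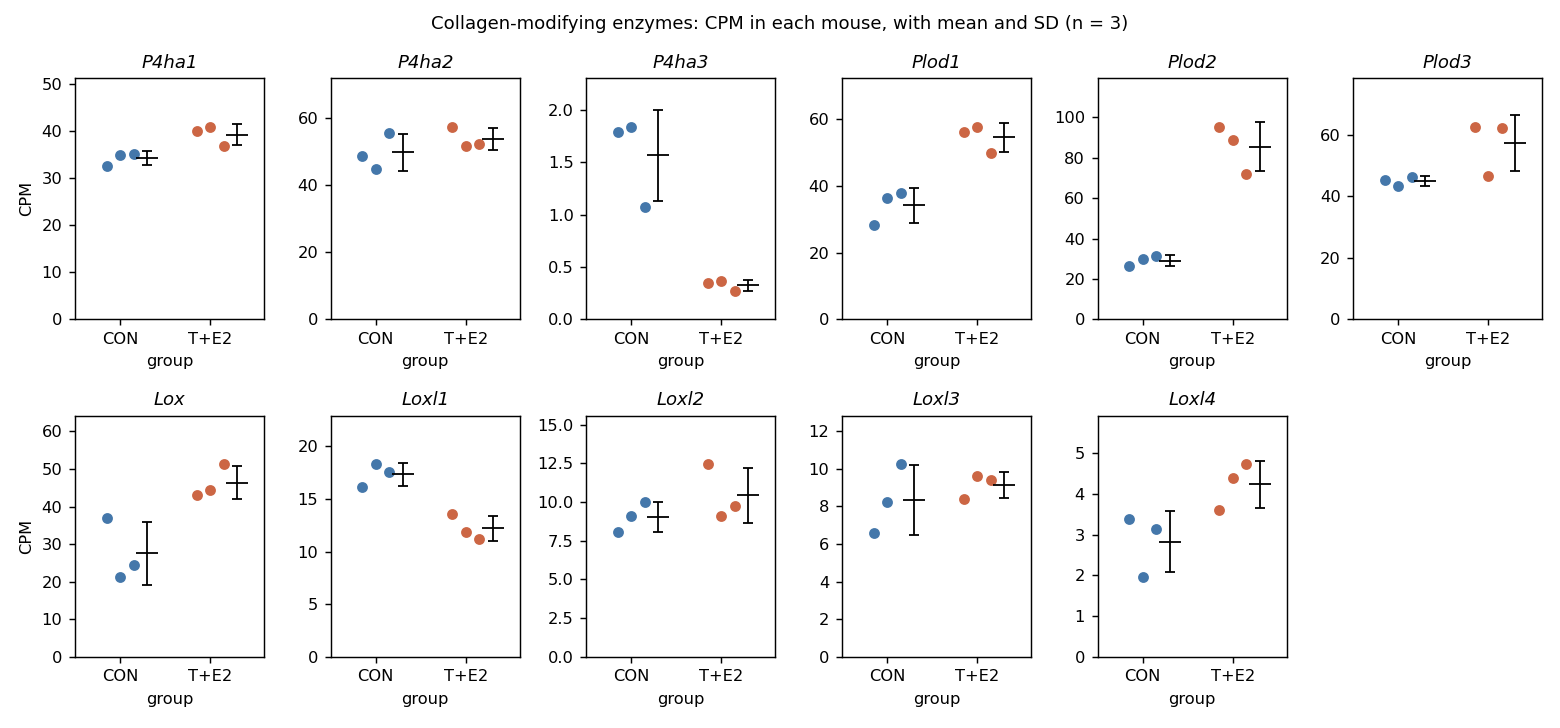
CPM of the 11 collagen-modifying enzymes in each mouse (points), with the mean and SD of each group (bars, n = 3). Plod2 lies at 26.4 to 31.2 CPM in the CON mice, compared with 72.1 to 95.5 CPM in the T+E2 mice, and P4ha3 at 1.07 to 1.84 CPM and 0.267 to 0.365 CPM.

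The strand setting of the counting was not given, and some of these genes share exonic bases with a gene on the other strand. Plod2 shares 346 bases with a gene that had 232 counts over the 6 mice, against 5271 counts for Plod2. Plod3 shares 529 bases with Znhit1 and Loxl3 shares 535 bases with Htra2, so their values are less certain. No gene with overlapping exons was annotated for Col4a6, Col6a5, Col13a1, Plod1 or P4ha3.

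Other genes of collagen handling were described from short lists chosen for their role. The counts of each list stand beside 10.4% of all genes tested that rose and 9.25% that fell, and no set was tested. Of 13 genes for other steps of procollagen modification and folding, 5 rose and none fell. P3h4, a partner of the lysyl hydroxylases in the endoplasmic reticulum, rose from 33.7, 38.4 and 41.0 CPM to 82.4, 88.2 and 70.6 CPM (log2 fold change 1.09, SE 0.12, adjusted p = 0.000710). The prolyl 3-hydroxylase P3h1 (0.65, SE 0.12, adjusted p = 0.00861) and the collagen galactosyltransferase Colgalt2 (0.92, SE 0.21, adjusted p = 0.0184) rose as well, as did Pdia3 and Fkbp10. The summed CPM of this list was 3321 to 4278 in the CON mice, compared with 4746 to 5441 in the T+E2 mice. Most of this sum came from P4hb (mean 1792 and 2208 CPM in the CON and T+E2 mice, adjusted p = 0.0986), Pdia3 (1122 and 1752 CPM, adjusted p = 0.0196) and Ppib (417 and 616 CPM, adjusted p = 0.0596), of which only Pdia3 passed. None of 7 tested genes of propeptide processing passed, and the one with the smallest p was Adamts2 (0.39, SE 0.12, adjusted p = 0.0519).

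Proteins that bind collagen fibrils changed in both directions. Of 8 tested small leucine-rich proteoglycans, 2 rose (Aspn, 0.94, adjusted p = 0.0135, and Ogn, 0.56, adjusted p = 0.0309) and 1 fell, the fibril-binding fibromodulin gene Fmod, from 60.8, 74.4 and 74.8 CPM to 29.4, 22.6 and 27.8 CPM (log2 fold change -1.40, SE 0.13, adjusted p = 0.000371). Of 12 tested genes of elastic fibres, 1 fell, Mfap2 (-1.08, SE 0.26, adjusted p = 0.0229). Of 8 tested collagen receptors, the integrin genes Itgb1 (0.39) and Itga1 (0.45) rose, and Itga11 (-1.41, SE 0.33, adjusted p = 0.0214) and the discoidin receptor Ddr1 (-0.78, SE 0.15, adjusted p = 0.00834) fell. Of 7 genes of collagen uptake and turnover, 2 fell. Prodh, which degrades proline, went from 90.1, 85.4 and 103 CPM to 26.7, 28.0 and 30.5 CPM (log2 fold change -1.71, SE 0.11, adjusted p = 5.25e-05), and Mmp2, a gelatinase, from 43.5, 44.2 and 44.3 CPM to 29.1, 24.4 and 28.8 CPM (-0.68, SE 0.10, adjusted p = 0.00264).

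Markers of the cells that could supply these transcripts were measured in the same mice. The counts of each marker list also stand beside 10.4% of all genes tested that rose and 9.25% that fell. The labelled tissue was checked by the prostate secretion genes Pbsn and Tgm4, which were at 12356 to 16646 and 18807 to 27266 CPM in the CON mice, although both fell in the T+E2 group (log2 fold changes of -3.29 and -2.91). Of the 5 secretion genes 2 rose and 2 fell, with log2 fold changes from -3.29 to 1.10. The sums of this list did not overlap, at 50310 to 61870 CPM in the CON mice and 19780 to 25750 CPM in the T+E2 mice. Of 8 smooth muscle markers 3 fell (Acta2, Des and Lmod1, with log2 fold changes of -0.50, -0.38 and -0.35) and none rose. Of 8 fibroblast markers 1 fell, Thy1 (-1.09), and the sums were 332 to 374 and 293 to 350 CPM. The fibroblast sums overlapped, whereas the smooth muscle sums did not. Of 5 pericyte markers 1 rose and 2 fell (86.6 to 106 and 93.0 to 105 CPM), and none of 7 endothelial markers passed (99.0 to 136 and 123 to 151 CPM). Of 7 luminal epithelial markers 2 rose and 1 fell (sums of 3671 to 3949 and 3697 to 3921 CPM). Of 5 basal epithelial markers 1 rose, Trp63, and the sums of the whole list were 496 to 534 and 556 to 643 CPM. The basal sums were higher in all T+E2 mice, and those of the other 3 lists overlapped.

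Most of the smaller marker lists were near the same level or varied between single mice. The Schwann cell and nerve list did not overlap between the groups, with sums of 121 to 155 CPM in the CON mice and 86.8 to 114 CPM in the T+E2 mice. Of its 5 markers 1 fell and none rose, and all 5 had log2 fold changes below 0 (median -0.44). Of 3 tested proliferation markers 1 fell, Top2a, and the sums of the whole list were 27.7 to 31.8 and 23.1 to 29.0 CPM. No tested marker of adipocytes (4 tested), skeletal muscle (5 tested, 68.6 to 273 and 84.5 to 197 CPM), leukocytes (5 tested, 28.3 to 47.8 and 36.8 to 58.0 CPM) or seminal vesicle (3 tested) passed. Cartilage markers were near 0 (0.629 to 1.12 and 0.426 to 1.20 CPM), with Matn1 at 0 in all mice. Beside -4.23 for Col4a6, the log2 fold changes lay between -1.09 and 0.11 among the smooth muscle and fibroblast markers. They lay between -0.54 and 0.59 among the basal and between -0.54 and 1.18 among the luminal epithelial markers. Among the prostate secretion genes they lay between -3.29 (Pbsn) and 1.10. The part of cell numbers in the collagen values was not tested.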

How the data were processed

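RNA from prostate tissue of 3 mice per group was sequenced as paired-end TruSeq libraries. The authors deposited counts per gene and FPKM per gene for each mouse. FPKM was the count divided by gene length and by the library total. The submitters' processing notes name TopHat, Bowtie2 and HTSeq, with no versions. The genome build and the strand setting were not given in the sources used here. Gene models were compared with GENCODE M21 (GRCm38).

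Members were chosen by symbol, and the members, gene lists and alternatives were chosen with earlier results of these data known. All genes were fitted together. Counts were tested with edgeR 4.0.16 (R 4.3.3) by the quasi-likelihood test, two-sided, after filterByExpr (minimum count 10, minimum total count 15) and TMM scaling, with group as the only term and Benjamini-Hochberg adjustment over 15580 genes. CPM used TMM library sizes. The study called DEGs with DESeq2 (adjusted p below 0.05, log2 fold change above 1 or below -1), and DESeq2 1.42.0 was an alternative here, as were limma 3.58.1 on log2(FPKM + 0.1) and log2(FPKM + 1), other scalings and filters, a replicate block and the omission of each mouse. The script was tested on simulated data. Mice within each group differed beyond sampling noise. The biological coefficient of variation was 18%, and 3 counts equalled 0.181 to 0.202 CPM, which covers counting error only.

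Named with full values were all members past the threshold and the 2 members with the highest mean FPKM in each class, and from each pathway list up to 3 tested genes with the smallest p (further genes that passed are named only). Transcripts were compared with each other by BLAST+ 2.17.0, and motifs were searched in RefSeq promoters (GRCm38.p6).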

Additional observations from a re-analysis of the deposited data

How the results depend on the processing

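Of the 11 genes that passed the test, 6 (Col4a6, Col6a5, Col5a3, Plod1, Plod2 and P4ha3) kept their call and direction in all 14 other settings, and 5 (Lox, Col20a1, Loxl1, Col16a1 and Col13a1) lost the call in at least 1. Leaving out each mouse in turn gave 3 to 5 members that rose and 3 to 9 that fell, with 3 that rose without CON mouse 2 or T+E2 mouse 1 and 3 that fell without CON mouse 3, where fewer samples were fitted. Over all genes these omissions gave 1095 to 1474 that rose and 834 to 1267 that fell. The log2 fold change of Col3a1, which was not called, ranged from -0.32 to 0.052 over these omissions (0.05199 without CON mouse 2 and 0.031 without T+E2 mouse 3). On log2(FPKM + 1), 1 member was a downregulated DEG instead of 3, since this pseudocount compresses low genes. Over all genes that setting called 365 upregulated and 196 downregulated DEGs, against 665 and 526 in the edgeR fit. With DESeq2, the tool of the study, 7 members rose and 9 fell, against 5 and 6, with 2 upregulated and 3 downregulated DEGs as before. Among the members followed gene by gene in the other settings, Col23a1 (0.00775), Col17a1 (0.0293), Col15a1 (0.0434) and Col6a3 (0.0499) then had an adjusted p under 0.05. Not every member was followed in this way, so these genes do not account for all of the added calls.

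Same-numbered mice of the 2 groups did not deviate together over all genes (correlations of -0.0516, 0.0275 and 0.0463). The seminal vesicle sum was nevertheless highest in the 2 mice numbered 2, at 10270 CPM (CON) and 642 CPM (T+E2). A shared order of dissection or processing was not tested. With the replicate block, 6 members rose and 4 fell, Col17a1 passed (adjusted p = 0.0347), and Col20a1 (0.0606) and Loxl1 (0.0670) did not. Over all genes 1229 rose and 945 fell with the block, against 1620 and 1441 without it. With 3 mice per group, an exact permutation test of 1 gene cannot go below p = 0.1.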
